A study of Mus musculus with 6 samples.

Results

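Toll-like receptors (TLRs) are the pattern receptors through which macrophages sense microbial lipids, proteins and nucleic acids, and CD14 is a co-receptor that hands lipopolysaccharide and lipopeptides to them. TLR1, TLR2, TLR4 and TLR6 sit at the cell surface, while TLR3, TLR7, TLR8, TLR9 and TLR13 sense nucleic acids inside endosomes and reach them with the help of the chaperone UNC93B1. Ligand binding recruits the adaptors MyD88 or TRIF, which lead to NF-kB and to interferon regulatory factors. OxLDL (oxidised low-density lipoprotein), which macrophages of atherosclerotic plaques engulf, has been described as a ligand of CD36 acting together with TLR4 and TLR6.

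The genes described here were taken by name: Tlr1, Tlr2, Tlr3, Tlr4, Tlr6, Tlr7, Tlr8, Tlr9, Tlr13 and Cd14, 10 of the 24054 genes in the deposited tables. All 10 were found and all passed the filter on low counts. Bulk poly(A) RNA was sequenced from macrophages grown for 7 days from the bone marrow of wild-type C57BL/6 mice in medium conditioned by L929 cells. Of the 6 samples, 3 had received oxLDL at 50 µg/ml for 24 hours and 3 had received no treatment, and every sample carried the number WT1, WT2 or WT3, each once per group. Samples of a number are called a pair below, and all titles hold the unexplained word mix. The labels do not say whether the samples came from separate animals or cultures, so p-values measure the spread between these samples, which may be technical.

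Each library held between 13546572 and 15559310 expected counts. Levels are given as CPM, counts scaled to a library of common size after TMM normalisation. Pair 3 stood apart from the other pairs, and Xist, the RNA of the inactive X chromosome, was at 957 and 505 CPM in untreated samples 1 and 2 against 0.341 in untreated sample 3, with nearly the same split among the oxLDL samples (966, 346 and 0.0724 CPM). Macrophage markers were present in every sample at unequal levels: Csf1r, the receptor of the macrophage growth factor, lay between 910 and 2535 CPM, and Mertk, a receptor for dying cells, between 9.70 and 80.9 CPM. The summed level of 8 macrophage markers lay between 12443 and 35657 CPM untreated and between 9081 and 16606 CPM with oxLDL. Lyz2 was its largest part in every sample. Alone of the 8, Cd68 was higher with oxLDL in every pair, at 740, 1096 and 1195 CPM untreated and 1613, 1643 and 1328 CPM with oxLDL. Lyz2, Emr1, Itgam and Fcgr1 were lower in every pair, and Csf1r, Mertk and Mrc1 differed in direction between pairs. Mean levels untreated and with oxLDL were 6271 and 1434 CPM for Emr1, 2127 and 465 CPM for Itgam, and 486 and 32.9 CPM for Fcgr1. Of the 8, only Fcgr1 passed the threshold used below (log2 fold change -3.98, edgeR adjusted p = 0.0287). Of markers of other cells, 6 of T and NK cells summed to at most 0.217 CPM and 6 of fibroblasts to at most 0.410 CPM. Sums reached 329 CPM for inflammatory monocytes, 77.8 CPM for endothelial cells and 36.8 CPM for neutrophils, and the B-cell gene Cd79b reached 37.7 CPM. The endothelial sum was mostly Kdr and Pecam1, with Cdh5 at or under 0.432 CPM and Tek at 0. In bulk samples, fewer cells of a type and less RNA per cell cannot be told apart.

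Because results turn on Tlr9 and Tlr3, their promoter windows are shown from RefSeq (GRCm38.p6, 250 bases before to 50 after the gene's start, 5′ to 3′ on the gene's strand). The third window is that of Tlr2, whose response differed between pairs. Capitals mark letters that match GAAANNGAA (core of the interferon-stimulated response element), GGNNTTTCC (core of the NF-kB site) or GAGGAAGT (a PU.1 site) on either strand.
Tlr9, chr9:106222348-106222647, plus strand: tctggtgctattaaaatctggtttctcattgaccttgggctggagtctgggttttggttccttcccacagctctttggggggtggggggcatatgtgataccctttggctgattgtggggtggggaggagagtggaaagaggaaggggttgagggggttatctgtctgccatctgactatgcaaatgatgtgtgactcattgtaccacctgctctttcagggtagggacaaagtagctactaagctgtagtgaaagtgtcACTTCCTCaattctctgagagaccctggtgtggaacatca
Tlr3, chr8:45410331-45410630, minus strand: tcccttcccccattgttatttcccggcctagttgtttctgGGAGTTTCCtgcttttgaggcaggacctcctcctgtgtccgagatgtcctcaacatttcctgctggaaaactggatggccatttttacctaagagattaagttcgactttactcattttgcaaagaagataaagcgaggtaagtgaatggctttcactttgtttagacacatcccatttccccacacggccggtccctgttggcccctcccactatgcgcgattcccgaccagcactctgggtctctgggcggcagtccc
Tlr2, chr3:83841559-83841858, minus strand: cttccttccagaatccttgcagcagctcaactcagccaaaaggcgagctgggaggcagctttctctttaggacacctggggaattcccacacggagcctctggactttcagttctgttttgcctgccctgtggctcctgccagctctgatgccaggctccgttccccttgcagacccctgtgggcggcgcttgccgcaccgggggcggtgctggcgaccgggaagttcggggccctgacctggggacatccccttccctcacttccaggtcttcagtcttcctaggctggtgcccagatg
The Tlr9 window held a PU.1 match that begins 10 bases after the start site, the Tlr3 window an NF-kB match 210 bases before it, and the Tlr2 window none of the 3 motifs in this spelling. Other spellings of these sites were not searched, so an unmarked window, that of Tlr2 included, may still hold such a site. Windows of 7 of the 10 genes were in the table. Matches to the interferon element were found for Tlr6, with 2 that overlapped in 1 window, and Tlr8, with 1, and a PU.1 match for Tlr1. Tlr1 and Tlr6 each had a second window, which held no match. Of 32851 windows of 300 bases, 8.56% held a match to the interferon element, 5.82% to the NF-kB core and 3.20% to the PU.1 site. These are matches of letters, not mapped binding sites.

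The comparison of treated with untreated cells asks which transcripts differ after macrophages meet oxLDL. Tlr9, the receptor for unmethylated CpG DNA, and Tlr3, the receptor for double-stranded RNA, fell. The 10 fitted log2 fold changes (oxLDL over untreated) were all negative, as were those of 48.6% of all genes tested. Of the 10, 6 were lower in every pair and 0 higher in every pair, against 27.0% and 26.4% of all genes tested. Over the 10 genes the median was -0.98, beside 0.01 over the 11400 genes tested. In the fit with the pair number as a block, 2 of 10 genes were lower and 0 higher at an adjusted p below 0.05 (edgeR quasi-likelihood test, Benjamini-Hochberg over all genes; "fell", "rose" and "did not pass" refer to this fit), while 3.98% of all genes tested were called lower and 1.91% higher. At an unadjusted p below 0.05, 6 of the 10 counted as lower, against 15.7% of all genes tested (29.0% in either direction). DESeq2 with the block called 5 of the 10 lower and 0 higher, and it also called more of the whole table, 10.1% lower and 6.17% higher.

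Calls depended on the design. Without the block edgeR called 0 of the 10, as it did over the whole table (0%), although 4 of the 10 and 14.7% of all genes had an unadjusted p below 0.05, and DESeq2 without the block called 3 lower (Tlr1, Tlr3 and Tlr9), against 4.87% of genes called lower and 2.84% called higher. Leaving out pair 1 or pair 2 ended every call in the table with the block. Leaving out pair 3 raised the number of the 10 called lower to 7, against 15.8% of genes called lower and 14.0% called higher in that fit.

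**Figure D1:**
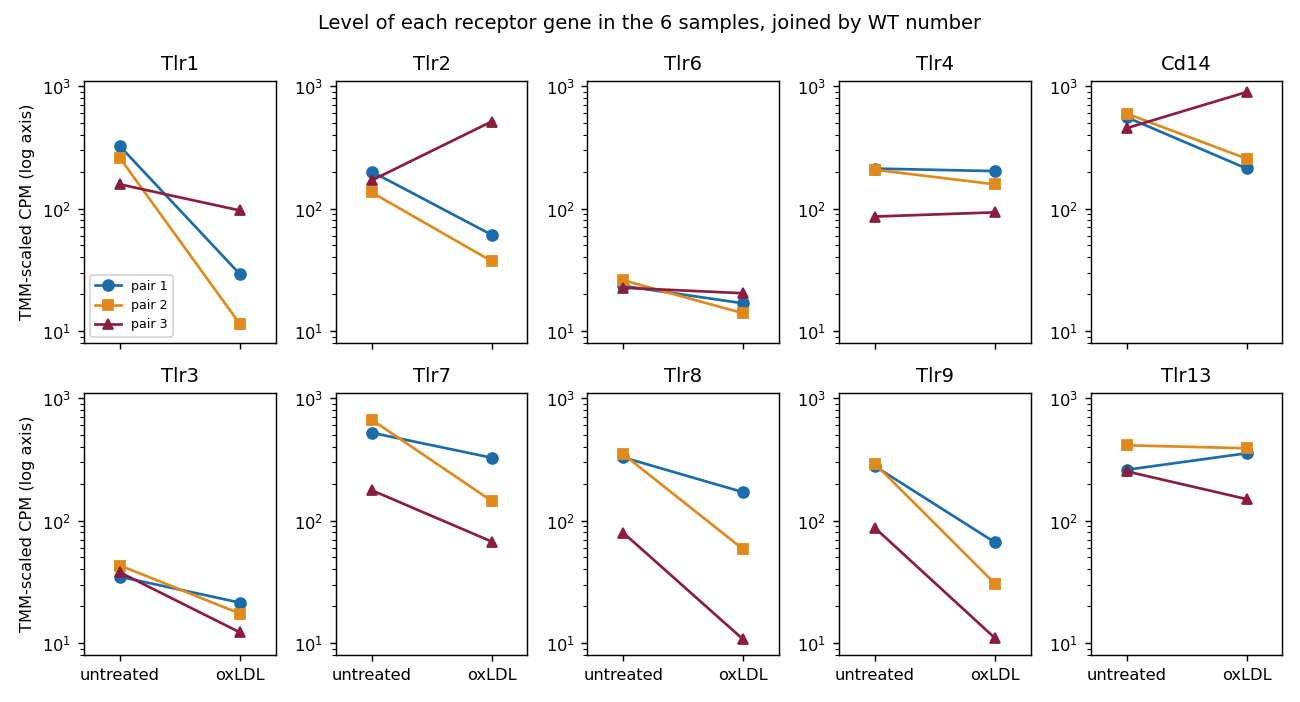
TMM-scaled CPM (log axis) of each receptor gene in the untreated and oxLDL sample of every pair, joined by lines (3 pairs, no error bars since every point is a sample). The lines of Tlr9, Tlr8, Tlr7 and Tlr3 go down in all pairs, whereas those of Tlr2 and Cd14 go down in pairs 1 and 2 and up in pair 3.

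Among the endosomal receptors, Tlr9 had the steepest fitted fall. Its levels were 278, 291 and 87.1 CPM without treatment in samples 1, 2 and 3, and 66.5, 30.6 and 11.0 CPM after oxLDL, in the same order, which is used throughout. The groups did not overlap, and pair 3 was the lowest of its group both times. The fall was 4.17-fold, 9.48-fold and 7.91-fold in pairs 1, 2 and 3. Its log2 fold change was -2.76 ± 0.28 with the block (SE, n = 3 per group; edgeR adjusted p = 0.0286) and -2.60 ± 0.78 without it (edgeR adjusted p = 0.214). The call was kept without pair 3 (-2.64, edgeR adjusted p = 0.00929) and lost without pair 1 (-3.12, adjusted p = 0.157) or pair 2 (-2.51, adjusted p = 0.106).

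TLR9 is also well known in B cells and plasmacytoid dendritic cells. Among B-cell markers, the signalling subunit Cd79b was at 37.7, 22.4 and 3.07 CPM untreated and 9.28, 5.01 and 1.52 CPM with oxLDL, a fall of the same direction (log2 fold change -1.83, edgeR adjusted p = 0.0362). Cd79a and Ms4a1 were each at or under 0.205 CPM in all samples, and Pax5 was at 0. Of 6 markers of plasmacytoid dendritic cells, Klk1 was at 0, Siglech reached 0.819 CPM at most, and the sum of the list ran from 5.94 to 18.9 CPM untreated and from 16.8 to 25.8 CPM with oxLDL, nearly all of it Runx2.

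Tlr3 measured 34.8, 43.0 and 37.8 CPM untreated and 21.4, 17.4 and 12.2 CPM with oxLDL. The groups did not overlap, and its untreated samples were close to each other, unlike those of Tlr9. The fall was 1.63-fold, 2.47-fold and 3.09-fold in pairs 1, 2 and 3. The log2 fold change was -1.21 ± 0.21 with the block (edgeR adjusted p = 0.0464) and -1.18 ± 0.23 without it (edgeR adjusted p = 0.120), so its call lay close to the threshold. It ended when genes under a mean of 5 CPM were dropped (adjusted p = 0.0527, edgeR), and without pair 1 (-1.47, adjusted p = 0.168) or pair 2 (-1.16, adjusted p = 0.230), whereas it was kept without pair 3 (adjusted p = 0.0142).

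Tlr8 and Tlr7, X-linked neighbours whose human forms sense single-stranded RNA and its breakdown products, were lower in every pair and did not pass. Tlr8 measured 328, 348 and 79.5 CPM untreated and 171, 58.3 and 10.7 CPM with oxLDL. The groups overlapped, because oxLDL sample 1 lay above untreated sample 3, and the level was 1.92-fold, 5.98-fold and 7.42-fold lower in pairs 1, 2 and 3. Its log2 fold change was -2.13 ± 0.44 with the block (edgeR adjusted p = 0.0629), -1.66 ± 1.03 without it, and -1.75 ± 0.44 with the block but without pair 3, where it passed (edgeR adjusted p = 0.0495).

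Tlr7 measured 522, 667 and 177 CPM untreated and 327, 145 and 67.5 CPM with oxLDL. Here too the samples of pair 3 were lowest and the groups overlapped. Its log2 fold change was -1.42 ± 0.33 with the block (edgeR adjusted p = 0.0746), -1.34 ± 0.72 without it, and -1.44 ± 0.41 with the block but without pair 3 (edgeR adjusted p = 0.0679). limma-voom with the block called both genes lower (adjusted p = 0.0417 for Tlr8 and 0.0499 for Tlr7), together with 5.67% of all genes tested, as did DESeq2 with the block.

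Ccr2, the receptor that draws monocytes from the marrow, had a similar order of samples, with 288, 284 and 16.5 CPM untreated and 107, 25.5 and 8.18 CPM with oxLDL, and missed the threshold (edgeR adjusted p = 0.0977). The 4 markers of inflammatory monocytes summed to 329, 324 and 73.3 CPM untreated and to 118, 32.8 and 20.3 CPM with oxLDL, and 1 of them, Plac8, fell (log2 fold change -3.99, edgeR adjusted p = 0.0286). The part of monocytes in the levels of Tlr7, Tlr8 and Tlr9 was not tested.

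Tlr13, a mouse receptor for bacterial ribosomal RNA that is also X-linked, was higher with oxLDL in pair 1 and lower in the others. It measured 260.3, 412 and 252 CPM untreated and 355, 389.9 and 149.9 CPM with oxLDL. Its log2 ratios were 0.45, -0.08 and -0.75 in pairs 1, 2 and 3, and the log2 fold change of -0.13 ± 0.26 did not pass (edgeR adjusted p = 0.776). Without pair 3 it was 0.18 ± 0.17, also short of the threshold. Differences between receptors were not tested.

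**Figure D2:**
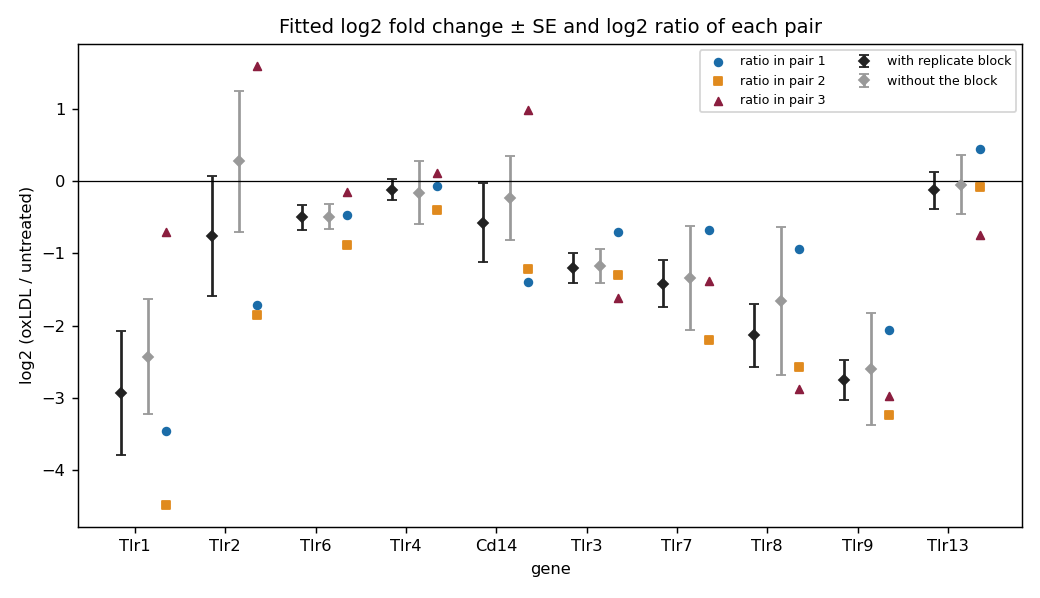
Log2 fold change (oxLDL over untreated) of every receptor gene with the replicate block (black) and without it (grey), bars ± SE, beside the log2 ratio of each pair (coloured points). In the blocked fit Tlr9 is at -2.76 with a short bar, whereas Tlr1 (-2.94) and Tlr2 (-0.76) have long bars and points far apart. Without the block the SE is 0.78 for Tlr9 and 0.80 for Tlr1.

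Among the surface receptors, TLR2 pairs with TLR1 to bind triacylated and with TLR6 to bind diacylated bacterial lipopeptides. Tlr1 measured 322, 258 and 158 CPM untreated and 29.1, 11.4 and 96.5 CPM with oxLDL. The groups did not overlap, but the level was 1.63-fold lower in pair 3 where it was 11.1-fold and 22.6-fold lower in pairs 1 and 2. The log2 fold change of -2.94 ± 0.86 was the most negative of the 10 and missed the threshold (edgeR adjusted p = 0.109, and 0.252 in the unblocked fit). Without pair 3 it was -3.96 ± 0.30 (edgeR adjusted p = 0.00296).

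Tlr6 measured 23.3, 25.9 and 22.5 CPM untreated and 16.8, 14.0 and 20.3 CPM with oxLDL. These groups did not overlap either, over a narrow range. At -0.50 ± 0.18 on the log2 scale it did not pass (edgeR adjusted p = 0.149), and without pair 3 the value was -0.68 ± 0.16 (edgeR adjusted p = 0.0303). In all, the oxLDL samples lay below every untreated sample in 4 of the 10 genes (Tlr1, Tlr3, Tlr6, Tlr9) and above them in 0, against 10.6% and 10.5% of all genes tested.

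The expected counts of Tlr1 and Tlr6 were not whole in any of the 6 samples, since RSEM divides reads between genes that match alike, so both levels depend on that division. Their open reading frames in the GENCODE M21 transcripts shared an identical run of 229 bases, at positions 1468 to 1696 of 2388 in Tlr1 and 1507 to 1735 of 2421 in Tlr6. Between any other 2 of the 9 Tlr genes the longest shared run was 16 bases. The shared run is shown because a read pair that falls wholly inside it cannot be placed between the neighbours on mouse chromosome 5.
Tlr1 and Tlr6, shared run: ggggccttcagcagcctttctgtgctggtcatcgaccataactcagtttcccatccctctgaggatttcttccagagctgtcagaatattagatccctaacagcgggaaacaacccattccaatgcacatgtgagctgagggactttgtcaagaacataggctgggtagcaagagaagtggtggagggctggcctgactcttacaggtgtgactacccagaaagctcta

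Tlr2 and Cd14 had ratios of opposite sign in different pairs. Tlr2 measured 200.2, 135 and 169.7 CPM untreated and 61.1, 37.3 and 513 CPM with oxLDL, which is 3.28-fold and 3.63-fold lower in pairs 1 and 2 and 3.02-fold higher in pair 3. Its 3 untreated samples were alike, and the oxLDL samples lay on both sides of them. The log2 fold change was -0.76 ± 0.83 with the block (edgeR adjusted p = 0.581) and 0.27 ± 0.98 without it. Without pair 3 it was -1.79 ± 0.12 (edgeR adjusted p = 0.00108).

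Cd14 measured 557, 596 and 454 CPM untreated and 212, 256 and 894 CPM with oxLDL. As with Tlr2, oxLDL sample 3 was the highest of all 6 and the other oxLDL samples the lowest. The ratio was 2.62-fold and 2.33-fold lower in pairs 1 and 2 and 1.97-fold higher in pair 3, and the log2 fold change of -0.58 ± 0.55 did not pass (edgeR adjusted p = 0.525). Without pair 3 it was -1.31 ± 0.13 (edgeR adjusted p = 0.00272). Counts behind these values were large, with 2486 and 7088 expected counts of Tlr2 and 6643 and 12349 of Cd14 in untreated and oxLDL sample 3. With 1 library of each kind in a pair, a difference in response between pairs could not be tested.

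A log2 ratio under -1 in pairs 1 and 2 and over 0.5 in pair 3, limits set after seeing Tlr2 and Cd14, was found in 33 of the 11400 genes tested (0.289%), these 2 included. By mean level the highest of the rest, also picked after their values were seen, were Cybb, the catalytic subunit of the phagocyte NADPH oxidase, Tfrc, the transferrin receptor, and Cxcl16, a chemokine that also binds oxidised lipids. In pairs 1, 2 and 3 the log2 ratios of Cybb were -1.61, -2.90 and 0.80, and those of Cxcl16 were -1.10, -1.87 and 0.64.

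**Figure D3:**
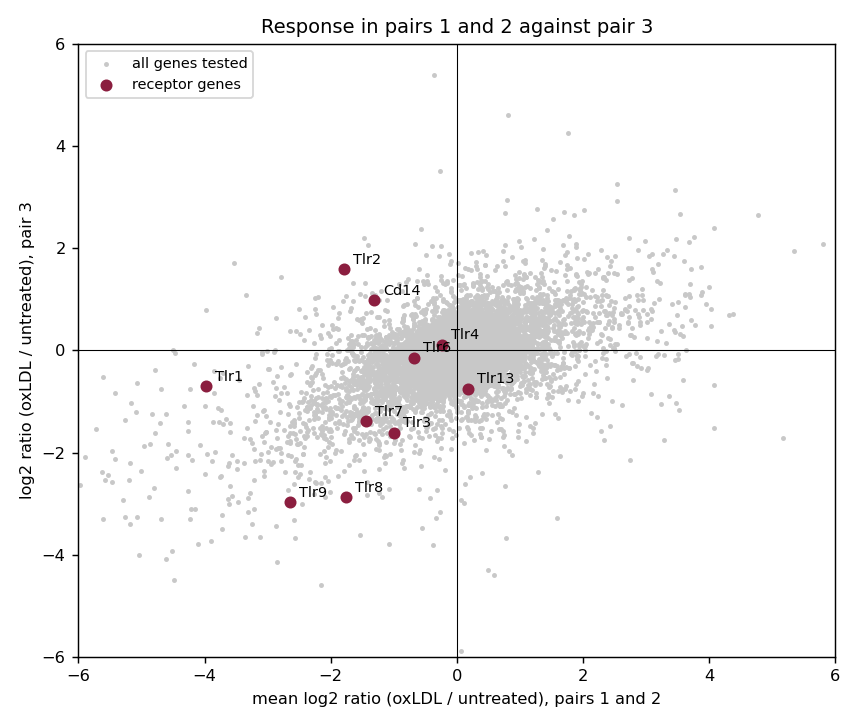
Log2 ratio (oxLDL over untreated) in pair 3 against the mean log2 ratio of pairs 1 and 2, for all genes tested (grey, 10 of them outside the axes) and the receptor genes (red). Tlr2 and Cd14 lie in the upper left, lower in pairs 1 and 2 and higher in pair 3, while Tlr9, Tlr8, Tlr7 and Tlr3 lie in the lower left.

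Tlr4, the lipopolysaccharide receptor, measured 212, 207 and 86.0 CPM untreated and 202, 158 and 93.1 CPM with oxLDL. It differed more between pairs than between groups, with the samples of pair 3 lowest in both. Its log2 ratios were -0.07, -0.40 and 0.11, and the log2 fold change of -0.12 ± 0.15 did not pass (edgeR adjusted p = 0.627). Without pair 3 it was -0.23 ± 0.13, also short of the threshold. Ly96, which encodes MD-2, the lipid-binding partner of TLR4, lay between 16.2 and 18.5 CPM untreated and between 13.3 and 16.5 CPM with oxLDL. It missed the threshold (-0.25 ± 0.12, edgeR adjusted p = 0.253).

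To set the genes beside each other, CPM was divided by the length of the longest protein-coding transcript in GENCODE M21, which may not be the annotation behind the counts. Per kilobase, Cd14 had the highest untreated level, 326 ± 44.9 CPM (SD, n = 3). Tlr7 followed with 117 ± 64.6, then Tlr1 with 81.3 ± 27.4, Tlr13 with 75.9 ± 22.2, Tlr8 with 73.4 ± 43.6, Tlr9 with 62.8 ± 32.8, Tlr2 with 55.9 ± 10.8 and Tlr4 with 41.3 ± 17.5 CPM per kilobase. Neighbours in this order from Tlr7 to Tlr4 overlapped between samples. Tlr3 (8.74 ± 0.94) and Tlr6 (6.51 ± 0.48) were far lower, and Cd14 lay above every sample of the others. With oxLDL the mean level per kilobase of Tlr9 was 10.4 ± 8.10 and that of Tlr13 was 73.5 ± 31.9.

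By the root mean square difference of centred log2 CPM over the 6 samples, among the 8625 genes whose log2 CPM averaged 3 or more, those closest in pattern to Tlr9 were Clec4a3 (0.21) and Clec4a1 (0.23), C-type lectin receptors of the DCIR group. Those closest to Tlr3 were Tmem106a (0.12) and Rin2 (0.13). These distances describe 6 samples that share pairs.

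The remaining genes of the pathway were read from lists of signalling partners, of which 61 of 64 genes were tested. In the blocked fit 9 of the 61 fell and 1 rose, against 3.98% and 1.91% of all genes tested. The same shares are to be set beside the counts given below for each list. Their median log2 fold change was -0.26, beside 0.01 over all genes tested. Without pair 3 the number was 23 lower and 8 higher, against 15.8% and 14.0% of all genes in that fit. In edgeR without the block 0 passed, as over the whole table, although 17 had an unadjusted p below 0.05 (14.7% of all genes). DESeq2 without the block called 8 lower and 2 higher, against 4.87% and 2.84% of all genes. Sarm1, Tlr11 and Tlr12 were below the count filter, and Tlr5, the flagellin receptor, had only 13, 34 and 8 counts untreated and 55, 38 and 1 with oxLDL.

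Unc93b1, the chaperone of the endosomal receptors, measured 1115, 974 and 413 CPM untreated and 398, 269 and 213 CPM with oxLDL. Every oxLDL sample was below every untreated sample, and the log2 fold change was -1.43 ± 0.23 (edgeR adjusted p = 0.0423). Of 9 genes of chaperoning and trafficking it was the one that fell. All 9 had a negative value, as did 48.6% of all genes tested. Those of Tmed7 (-0.05 ± 0.12) and Ap3b1 (-0.08 ± 0.12) were smaller in size than their SE. The largest of those that did not pass were the endolysosomal transporters Slc15a4 (-0.94 ± 0.19) and Slc15a3 (-0.57 ± 0.17).

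Cd180, a surface receptor of the TLR family, and Ly86, which encodes its partner MD-1, fell together. Cd180 measured 507, 574 and 350 CPM untreated and 283, 237 and 109 CPM with oxLDL, and Ly86 measured 58.3, 72.1 and 41.9 CPM untreated and 12.8, 9.81 and 8.68 CPM with oxLDL. Neither gene overlapped between groups. Their log2 fold changes were -1.27 ± 0.21 and -2.45 ± 0.18 (edgeR adjusted p = 0.0442 and 0.0284, and in the unblocked fit 0.263 and 0.0667). Cd36, the scavenger receptor for oxLDL, did not pass (0.51 ± 0.28).

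Of 10 genes of endolysosomal processing, 2 fell and 0 rose. Lgmn, an endopeptidase that takes part in receptor cleavage, fell from 1562 ± 228 to 558 ± 162 CPM (SD, n = 3), which gave -1.52 ± 0.23 on the log2 scale (edgeR adjusted p = 0.0382). Pld4, an exonuclease of single-stranded nucleic acids, fell from 795 ± 272 to 347 ± 169 CPM (-1.28 ± 0.19, edgeR adjusted p = 0.0376). Its relative Pld3 did not pass (0.92 ± 0.25), with all oxLDL samples above all untreated samples. The protease Ctss (-0.52 ± 0.23) did not pass either.

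Of the 4 adaptors tested, 0 passed in edgeR, although all 4 were lower in every pair (27.0% of all genes tested) and had an unadjusted p below 0.05 with the block (15.7% of all genes tested, counting those that were lower). Myd88, the shared adaptor, measured 141, 130 and 80.0 CPM untreated and 43.0, 37.5 and 53.9 CPM with oxLDL. Its groups did not overlap, and its log2 fold change was -1.37 ± 0.29 (edgeR adjusted p = 0.0655). Ticam1, which encodes TRIF, the adaptor of TLR3 and TLR4, had a value of -0.65 ± 0.14 (edgeR adjusted p = 0.0683), and Ticam2 one of -0.88 ± 0.26.

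Of 14 kinases, ligases and their partners, 1 fell and 1 rose. Ikbke, a kinase upstream of interferon regulatory factors, fell from 206 ± 79.6 to 60.2 ± 7.46 CPM (-1.71 ± 0.27, edgeR adjusted p = 0.0449). Ikbkg, the regulatory subunit NEMO of the IkB kinase, rose from 74.9 ± 32.3 to 167 ± 83.2 CPM (1.14 ± 0.14, edgeR adjusted p = 0.0302). The receptor-associated kinases Irak1 (0.54 ± 0.11) and Irak2 (-0.88 ± 0.31) did not pass.

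Of 5 transcription factors, Irf5, which acts downstream of MyD88, fell. It measured 221, 227 and 107 CPM untreated and 113, 123 and 39.4 CPM with oxLDL, groups that overlapped although every pair was lower (-1.09 ± 0.16, edgeR adjusted p = 0.0369). Irf7, the interferon factor used by TLR7 and TLR9, measured 478, 609 and 1105 CPM untreated and 35.5, 14.1 and 311 CPM with oxLDL. These groups did not overlap, yet at -3.66 ± 0.80 on the log2 scale it missed the threshold (edgeR adjusted p = 0.0698). Nfkb1 (-0.56 ± 0.31) did not pass.

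Of 13 negative regulators, 2 fell and 0 rose. Pik3ap1, the adaptor BCAP, fell from 770 ± 268 to 180 ± 16.5 CPM (-2.03 ± 0.23, edgeR adjusted p = 0.0287), and Tnip3, an A20-binding inhibitor of NF-kB, fell from 89.6 ± 24.7 to 25.3 ± 5.17 CPM (-1.81 ± 0.19, edgeR adjusted p = 0.0286). Irak3, the inhibitory kinase IRAK-M, had a value of -1.82 ± 0.55 and Peli1 one of -0.60 ± 0.17, and neither passed.

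**Figure D4:**
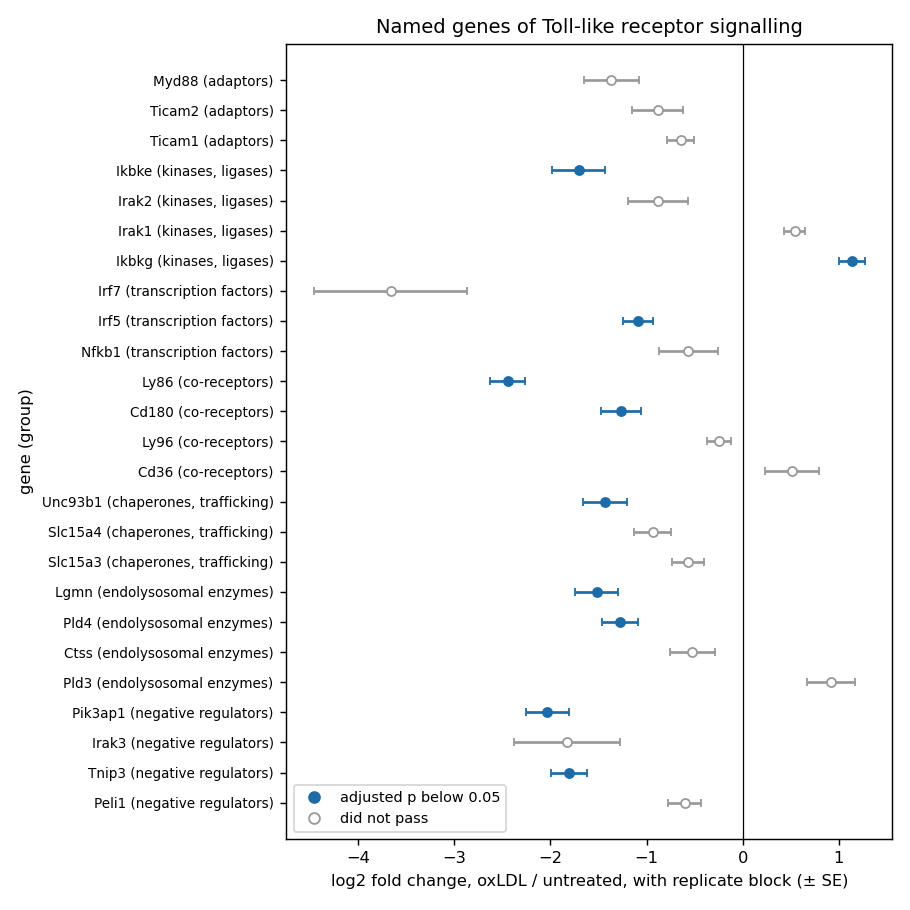
Log2 fold change (oxLDL over untreated, with the replicate block) of 25 signalling genes named by a fixed rule, with bars ± SE, grouped by role. Filled blue points passed an adjusted p of 0.05: 9 lie left of 0 and 1, Ikbkg, lies right of it.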

How the data were processed

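RNA was sequenced from 3 oxLDL-treated and 3 untreated samples. The authors deposited expected counts, estimated with RSEM 1.2.15 after Bowtie2 2.1.0 per the submitters' processing notes, and a normalised signal, CPM of TMM-scaled libraries, per the file's name. Its values were whole reads times a constant (100% of nonzero values whole within 0.005). Of all values, zeros included, 99.9% gave the rounded counts. The notes list hg19, a human build, for mouse samples, so the annotation and its build are not known here. The labels' protocols name a stranded kit, but the strand setting of the counting is unknown here.

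Expected counts were rounded. Genes were kept with filterByExpr (minimum count 10, total 15), leaving 11400, and scaled with TMM. The levels differed from the deposited CPM by at most 1.04%. The test was edgeR 4.0.16 (R 4.3.3), quasi-likelihood with robust estimation, with pair number and group as terms. Standard errors come from the fold change and F. DESeq2 1.42.0, limma 3.58.1, other scalings and filters, and left-out samples were alternatives.

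Same-numbered samples deviated together from their group means (r = 0.66, 0.45 and 0.70), above the limit of 0.1, and unlike numbers ranged from -0.76 to 0.63. Untreated sample 2 was closer to oxLDL sample 1 (0.63) than to oxLDL sample 2 (0.45). Untreated sample 1 with oxLDL sample 2 (0.20) was above the limit too. The limit therefore set number 3 apart but did not tell numbers 1 and 2 apart. The labels do not say what a number marks. Pair number entered because the genes' rule matches samples by it. That choice, the members and the lists were made with earlier results of these data known, including how many genes each fit calls. Beside the 10 receptor genes, the text names pathway genes past the threshold, up to 2 further per list with the largest change (log2 CPM averaging 3 or more), and 7 genes set by name. Marker lists of neutrophils, inflammatory monocytes, conventional dendritic, endothelial and mast cells were summed too.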

Additional observations from a re-analysis of the deposited data

How the results depend on the processing

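With the replicate block in edgeR, 2 receptor genes and 9 pathway genes were lower, 0 and 1 higher, against 3.98% and 1.91% of all genes tested. Without the replicate block the 4 counts were 0 in edgeR. DESeq2 with the block, which called 10.1% of all genes lower and 6.17% higher, called 5 receptor genes and 19 pathway genes lower and 4 pathway genes higher. Without the block DESeq2 called 2 pathway genes higher, against 2.84% of all genes. limma-voom with the block called 4 receptor genes and 5.67% of all genes lower, and dropping genes under a mean of 5 CPM left 1. Over fits that left out a pair or a sample, receptor genes called lower ranged from 0 to 7, and pathway genes from 0 to 23 lower and from 0 to 8 higher. The upper ends came without pair 3, where 15.8% of all genes were called lower and 14.0% higher. In edgeR the only other leave-out fit with a call among these genes was the unblocked fit without untreated sample 3. It called 8 pathway genes lower, against 443 of 11626 genes tested. The cause was not tested.

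Tlr1, Tlr3, Tlr6, Tlr7, Tlr8 and Tlr9 kept a negative log2 fold change in all 18 alternatives, Tlr9 from -3.39 to -2.18 and Tlr3 from -1.47 to -0.998, and these were called in 9 and 8 of them. Tlr2 reversed without the block (0.27 in edgeR, 0.26 in DESeq2), and over leave-out fits ranged from -1.79 to 0.77, being 0.41, 0.14 and 0.29 without untreated sample 1, 2 or 3 and 0.71 and 0.77 without oxLDL sample 1 or 2, all unblocked. Tlr4 ranged from -0.47 to 0.086 and was positive without pair 2 (0.022), and unblocked without untreated sample 1 (0.036) or 2 (0.011) or oxLDL sample 3 (0.086). Tlr13 ranged from -0.42 to 0.26 and was positive without pair 3 (0.18), and unblocked without untreated sample 2 (0.21) or oxLDL sample 3 (0.26). Cd14 ranged from -1.31 to 0.10, positive unblocked without oxLDL sample 1 (0.10) or 2 (0.047). The blocked fit had 3 samples a group and 2 residual degrees of freedom, and what limited its calls was not tested. Every receptor gene had at least 148 expected counts in every sample.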

Other observations

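Neutrophil genes summed to 7.51 to 36.8 CPM untreated and 1.34 to 5.52 CPM with oxLDL. Those of conventional dendritic cells stayed at or under 3.89 CPM and those of mast cells and basophils at or under 0.478 CPM. Endothelial genes, mostly Kdr and Pecam1, summed to 39.2 to 77.8 CPM untreated and 21.6 to 35.5 CPM with oxLDL. Cdh5 was at or under 0.432 CPM and Tek at 0 in every sample. Of 8 macrophage markers, 1, the Fc receptor gene Fcgr1, fell. The part of these cells in the levels of the receptor genes was not tested.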
